A study of Homo sapiens with 4 samples.

Results

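The genes described here encode intermediate filament proteins: the simple-epithelial keratins KRT7, KRT8, KRT18 and KRT19, and vimentin (VIM), nestin (NES) and desmin (DES). They were chosen by gene symbol, and each of the 7 symbols had 1 row among the 58365 genes of the expression table. The table held 4 RNA-seq libraries of cells derived from H1, a human embryonic stem cell line, collected at day 2 of hematopoietic differentiation. All 4 samples received 40 ng/ml activin A and 50 ng/ml BMP4 according to the labels, in custom mTeSR1 medium. The 2 libraries labelled DMSO had no IWP2, and the 2 labelled IWP2 were treated with this inhibitor of Porcupine, the enzyme that adds the lipid which Wnt ligands need for secretion. The dose of IWP2 was not given in the sources used here. The comparison asked what the filament genes did when Wnt ligand secretion was blocked during the step from pluripotency to mesoderm. The labels name a single line and do not say whether replicates were separate cultures, so the p-values measure only the spread between these libraries, which may be technical.

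Intermediate filaments are the rope-like part of the cytoskeleton, and the mix of filament proteins differs between cell types. Keratins form obligate pairs of a type II chain (KRT7, KRT8) and a type I chain (KRT18, KRT19), and they anchor epithelial cells to one another through desmosomes. Vimentin and desmin are type III proteins that can assemble alone, and vimentin is the filament protein of mesenchymal cells, desmin that of muscle. Nestin, a large protein of neural and other progenitors, copolymerises with vimentin. A shift from keratin to vimentin is a textbook sign of epithelial-mesenchymal transition (EMT), the process by which epiblast cells leave the epithelium during gastrulation.

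Vimentin fell steeply with IWP2, KRT7 rose from a low level, and nestin rose slightly, whereas the abundant keratins KRT8, KRT18 and KRT19 kept high levels in both groups with differences that did not pass the test. Values are FPKM, fragments counted per length of transcript and scaled to the library, so levels can be compared between genes. Tests were made with limma on log2(FPKM + 1) over the 14022 genes with a mean of at least 1 FPKM, and a gene was called at a Benjamini-Hochberg adjusted p under 0.05. Of the 7 genes, 2 were called higher with IWP2 (KRT7 and NES), 1 was called lower (VIM), 3 were not called and DES lay below the level needed for the test. The VIM call held in all 12 alternative analyses, whereas the calls of NES and KRT7 were lost in some, as given below. The median log2 difference of the 6 genes tested was 0.30, against -0.02 over all genes tested. Over all genes tested, 15.2% were called, 6.75% as higher and 8.44% as lower. The IWP2 and DMSO values did not overlap for any of the 7 genes, 5 being higher and 2 lower with IWP2. That says little by itself, since 59.8% of all genes tested did not overlap with 2 libraries a group, 27.9% being higher and 31.9% lower.

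**Figure D1:**
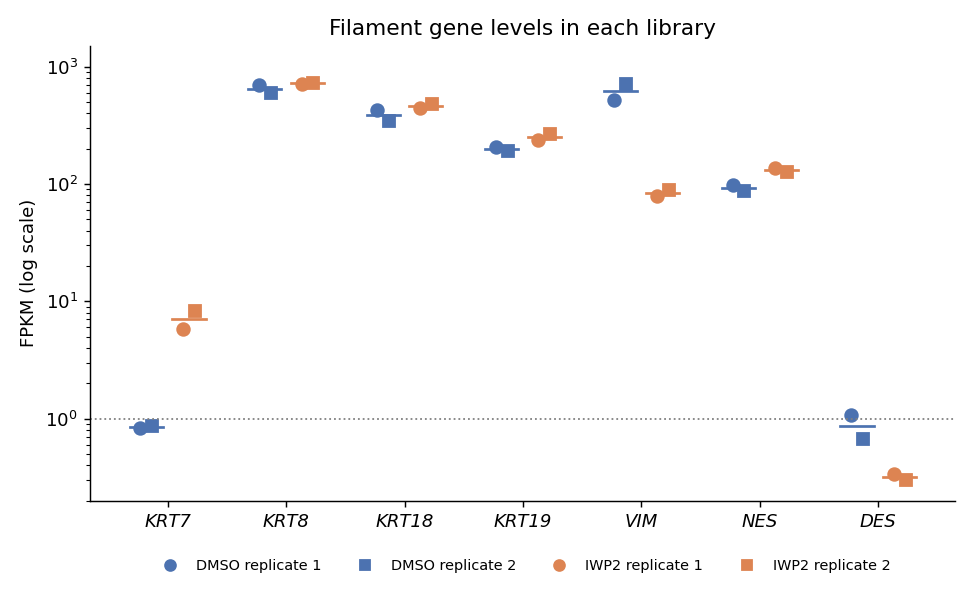
FPKM (vertical axis, log scale) of the 7 filament genes in each of the 4 libraries, with DMSO in blue and IWP2 in orange. Circles are replicate 1, squares are replicate 2, short lines are group means, and the dotted line marks 1 FPKM. VIM drops from 519 and 713 to 79.4 and 89.6, KRT7 moves from below 1 to 5.85 and 8.22, and KRT8, KRT18 and KRT19 stay within a narrow band.

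The 4 libraries were alike in their general measures. Between 13831 and 13926 genes reached 1 FPKM, and 58.0% to 58.5% of rows were listed at 0. The number of reads behind these values is unknown, because FPKM does not keep it. Spearman correlation over the genes tested was 0.97 between the DMSO replicates, 0.98 between the IWP2 replicates and 0.92 to 0.93 between groups, which describes the libraries and is not a test. The short RNAs RN7SL1, RN7SL2 and MT-ATP8 took 10.4% and 10.3% of FPKM in replicate 1 of DMSO and IWP2 but 5.36% and 7.25% in replicate 2. Of 10 Wnt response genes tested 8 fell, against 8.44% of all genes tested, and 4 of the 8 (SP5, LGR5, LEF1 and DKK1) had IWP2 means under 1 FPKM and so entered the test only through their DMSO levels. The largest falls were those of SP5 (53.2 and 47.0 FPKM with DMSO, 0.379 and 0.363 with IWP2) and LGR5, a receptor for R-spondins (21.5 and 27.8 against 0.105 and 0.0763).

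VIM lies on chromosome 10 (GRCh38, chr10:17228259-17237593, plus strand) and has 9 exons in its main transcript. VIM stood at 519 and 713 FPKM in the 2 DMSO libraries and at 79.4 and 89.6 FPKM in the 2 IWP2 libraries. Both IWP2 values were far below the lower DMSO value. The group means were 616 ± 138 and 84.5 ± 7.25 (SD, n = 2), a 7.29-fold lower level with IWP2, and the log2 difference of -2.84 ± 0.17 (SE) was called (limma, adjusted p = 0.00102). This was the fall ranked 99 among all genes tested. Among the 869 genes with a mean of at least 100 FPKM, 5 fell by as much as VIM or more, VIM included, where the median log2 difference was 0.03. The other 4, picked out after their values were seen, were APLNR, CER1, MIXL1 and AL645608.4, the last of which had a value above 0 in only 1 library. VIM and these 4 were below 100 FPKM in both IWP2 libraries and reached that mean only through DMSO levels. Their standing among abundant genes is therefore a description and lends the fall no support. The fall of VIM was called in all 12 alternative analyses, in which the log2 difference ranged from -3.06 to -2.61. In bulk RNA, fewer cells of a type and less RNA per cell cannot be told apart, which holds for VIM and for every gene below.

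NES is on chromosome 1 (chr1:156668763-156677397, minus strand), with 4 exons and a main transcript of 5558 bases. Its level was 98.6 and 87.1 FPKM with DMSO and 136 and 125 FPKM with IWP2. Both IWP2 libraries lay above both DMSO libraries, with means of 131 ± 7.41 and 92.8 ± 8.14 (SD, n = 2), a 1.41-fold difference. The log2 difference of 0.49 ± 0.10 was called (limma, adjusted p = 0.0313), but the call was lost in 6 of 12 alternatives, among them the removal of any single library (adjusted p 0.0544 without DMSO replicate 1, 0.108 without DMSO replicate 2, 0.194 without IWP2 replicate 1 and 0.143 without IWP2 replicate 2). Nestin and vimentin thus differed in opposite directions, and the ratio of NES to VIM FPKM was 0.190 and 0.122 in DMSO and 1.71 and 1.40 in IWP2. Of all genes tested, 10.5% had a larger positive difference than NES.

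The sequences before the transcription starts of VIM and NES are shown because these are the called members with a promoter window in the RefSeq table (GRCh38.p14), in which 3 of the 7 symbols matched (KRT8, VIM and NES). Each run is the 250 bases before the RefSeq start, 5′ to 3′ on the gene's own strand, with GC boxes in capitals. The VIM window is chr10:17227991-17228240 (plus strand) and the NES window is chr1:156677408-156677657 (minus strand).
VIM: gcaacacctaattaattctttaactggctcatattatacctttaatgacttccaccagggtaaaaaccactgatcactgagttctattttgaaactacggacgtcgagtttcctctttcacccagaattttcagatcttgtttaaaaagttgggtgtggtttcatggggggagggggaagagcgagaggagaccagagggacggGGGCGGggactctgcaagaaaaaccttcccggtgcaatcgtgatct
NES: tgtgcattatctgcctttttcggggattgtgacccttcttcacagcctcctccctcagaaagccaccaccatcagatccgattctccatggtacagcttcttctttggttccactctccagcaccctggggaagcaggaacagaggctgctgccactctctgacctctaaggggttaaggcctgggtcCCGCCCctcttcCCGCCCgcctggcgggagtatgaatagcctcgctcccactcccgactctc
The GC box (GGGCGG, either strand), the site of SP-family factors, matched once in the VIM window and at 2 places in the NES window, and 42.3% of the 27305 promoter windows of the same length hold it. The TCF/LEF letters searched (CTTTGAA or CTTTGAT or CTTTGTA or CTTTGTT, either strand) were in neither window, against 12.1% of all windows. They matched once in the window of KRT8, 97 bases before its RefSeq start, which lies 19851 bases from the start of the main KRT8 transcript, so that window is not printed. The E-box CACCTG read by SNAI and ZEB factors was in neither window, against 17.5% of all windows. Nor did either window hold the grainyhead-like letters AACNNGTT (2.97% of all windows), the AP-2 letters GCCNNNGGC (19.7%), the box CCAAT (33.0%) or the box TATAAA (11.1%), searched on both strands. These are matches of letters in a short window and say nothing about binding. The VIM start in RefSeq lies 1037 bases before the start of the main GENCODE transcript, so the window may not be the promoter in use here, whereas for NES both starts are 10 bases apart.

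KRT7 (chr12:52232520-52252186, plus strand, 9 exons) is a type II keratin of simple and ductal epithelia, amnion and trophoblast. It was listed at 0.833 and 0.864 FPKM with DMSO and at 5.85 and 8.22 FPKM with IWP2. Every IWP2 value was several times the DMSO values. The means were 0.849 ± 0.0216 and 7.03 ± 1.68 (SD, n = 2), an 8.29-fold rise, and the log2 difference of 2.10 ± 0.19 was called (limma, adjusted p = 0.00356). The log2 scale with a pseudocount of 1 understates such a low gene, and with a pseudocount of 0.1 the difference was 2.89. KRT7 entered the test only through its IWP2 level, and the call was lost without IWP2 replicate 2 (adjusted p = 0.0539) and when genes of any level were tested (adjusted p = 0.0628). Only 0.364% of genes tested had a larger positive difference. Even with IWP2, KRT7 made up no more than 0.555% of the summed FPKM of the 4 keratins, up from 0.0630% and 0.0767% in the DMSO libraries.

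KRT8, the main type II keratin of simple epithelia and of pluripotent stem cells, was the most abundant of the 7 genes. It lies on chromosome 12 (chr12:52897187-52949954, minus strand) and ranked 137 among all rows by mean level. Its values were 694 and 590.3 FPKM with DMSO and 714 and 727 FPKM with IWP2. The higher DMSO library was close to the IWP2 libraries, and the log2 difference of 0.17 was not called (95% confidence interval -0.10 to 0.44, limma adjusted p = 0.345). The interval holds differences of up to 0.44 on the log2 scale. Among genes of at least 100 FPKM, 22.4% had a larger positive difference than KRT8.

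KRT18, the type I partner of KRT8, is the only type I keratin gene in the type II cluster on chromosome 12 (chr12:52948871-52952901, plus strand). It had 423 and 345 FPKM with DMSO and 444 and 480.1 FPKM with IWP2. The gap between the nearest libraries of both groups was smaller than the gap between the DMSO replicates. The log2 difference of 0.27 was not called (95% confidence interval -0.04 to 0.58, limma adjusted p = 0.213).

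KRT19, the shortest type I keratin, which lacks most of the tail domain of its relatives, lies in the type I cluster on chromosome 17 (chr17:41523617-41528308, minus strand). Its values were 205 and 191 FPKM with DMSO and 236 and 266 FPKM with IWP2. Both IWP2 libraries were higher, with means of 251 ± 21.5 and 198 ± 9.99 (SD, n = 2), and the log2 difference was 0.34 (95% confidence interval 0.09 to 0.58). It was not called after adjustment (limma, adjusted p = 0.0798), nor in any of 12 alternatives, where the adjusted p ranged from 0.0506 to 0.315.

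DES (chr2:219418377-219426739, plus strand) was at 1.06 and 0.674 FPKM with DMSO and at 0.338 and 0.300 FPKM with IWP2. All values were low, and its mean of 0.594 FPKM kept it out of the test. Tested among genes of any level, its log2 difference of -0.49 was not called (limma, adjusted p = 0.213). The levels are near the lower end of what the table lists, so no change is read from them.

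**Figure D2:**
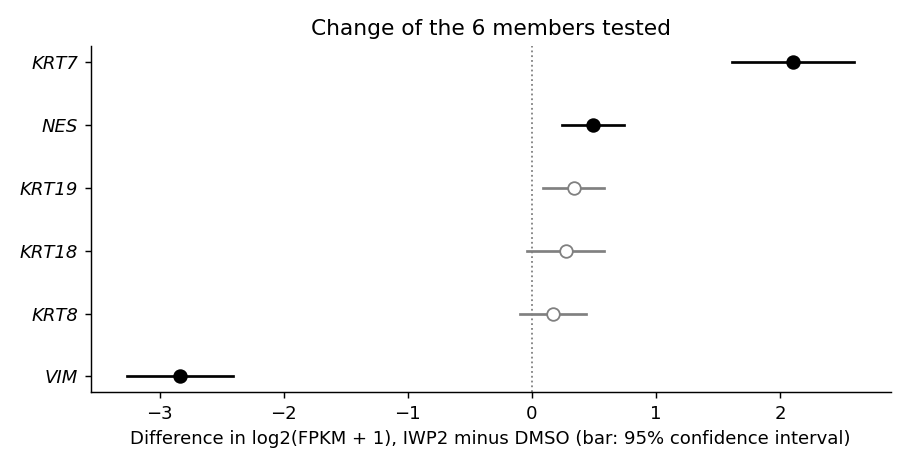
Difference in log2(FPKM + 1) between IWP2 and DMSO (horizontal axis) for the 6 genes tested, with 95% confidence intervals from limma as bars. Filled points were called at an adjusted p under 0.05. KRT7 and NES lie above 0 and VIM below it, while the intervals of KRT8 and KRT18 include 0 and that of KRT19 does not.

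The order of the 7 genes changed between groups mainly through VIM. With DMSO the means were 642 ± 73.1 FPKM for KRT8, 616 ± 138 for VIM, 384 ± 55.4 for KRT18, 198 ± 9.99 for KRT19 and 92.8 ± 8.14 for NES, followed by DES (0.869 ± 0.276) and KRT7 (0.849 ± 0.0216). KRT8 and VIM did not differ beyond their spread there, nor did DES and KRT7. With IWP2 the order was KRT8 (721 ± 9.72), KRT18 (462 ± 25.7), KRT19 (251 ± 21.5), NES (131 ± 7.41), VIM (84.5 ± 7.25), KRT7 (7.03 ± 1.68) and DES (0.319 ± 0.0269), and no neighbours overlapped. VIM made up 26.7% and 37.0% of the summed FPKM of the 7 genes with DMSO and 4.92% and 5.28% with IWP2.

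The ratio of the 4 keratins together to VIM was 2.55 and 1.58 in the DMSO libraries and 17.6 and 16.5 in the IWP2 libraries. The mean ratio with IWP2 was 8.27 times the mean with DMSO. Most of this came from the denominator, since the keratin sum was 1323 and 1127 FPKM with DMSO and 1399 and 1482 FPKM with IWP2. The balance inside the keratins moved little. The ratio of KRT8 to KRT18 was 1.64 and 1.71 with DMSO and 1.61 and 1.52 with IWP2, and type II to type I keratin was 1.11 and 1.10 against 1.06 and 0.986. These ratios are given as descriptions, with no test.

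**Figure D3:**
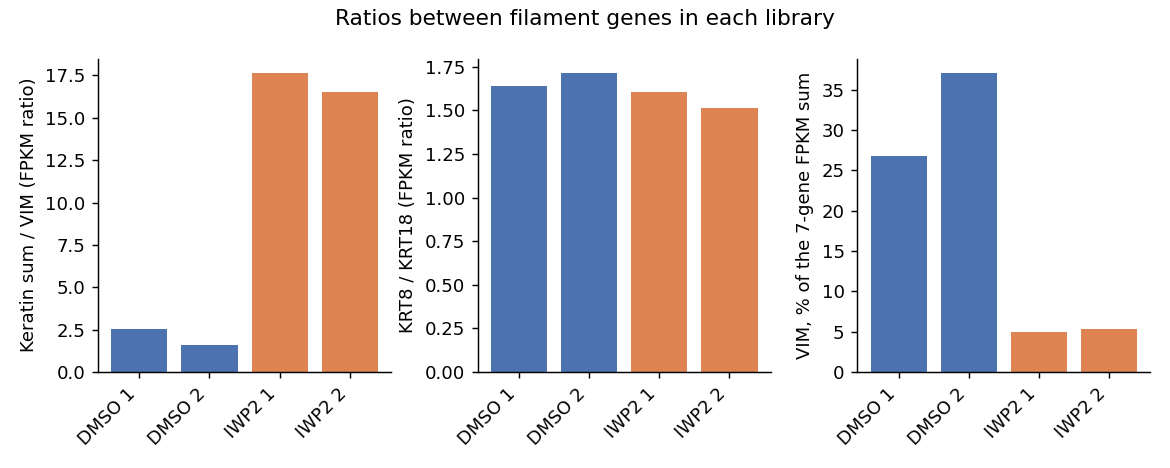
Ratios of FPKM in each library (bars from 0, DMSO in blue, IWP2 in orange): the summed keratins KRT7, KRT8, KRT18 and KRT19 over VIM, KRT8 over KRT18, and VIM as a percent of the sum of the 7 genes. The first ratio is 1.58 to 2.55 in DMSO and 16.5 to 17.6 in IWP2, while KRT8 over KRT18 stays between 1.52 and 1.71.

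Other keratins contributed little. The table held 27 keratin genes on chromosome 12 and 28 on chromosome 17, of which 17 and 18 were listed at 0 in every library. A mean of at least 1 FPKM was reached by 3 genes in each cluster: KRT7, KRT8 and KRT18 on chromosome 12, and KRT10, KRT17 and KRT19 on chromosome 17. The stratified keratins KRT5 and KRT14, which mark basal epidermal cells, were listed at 0 throughout. KRT8 and KRT18 have many processed pseudogenes, and the rows of pseudogenes and antisense genes named after the members numbered 125, of which 60 were at 0 in every library. The most abundant were KRT8P3 (mean 6.23 FPKM), KRT8P12 (2.16) and KRT8P45 (0.601). Summed, the 50 KRT8 pseudogene rows had 1.65% of the FPKM of KRT8, and the 68 KRT18 rows 0.593% of that of KRT18.

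Several members share sequence or position with other genes, which limits how exactly reads could be assigned. Of the windows of 50 bases in the main transcript, 37.1% in KRT8 and 47.6% in KRT18 were found unchanged in transcripts of other genes (GENCODE 29), against 43.8% in VIM, 10.8% in KRT7, 2.64% in DES, 1.79% in KRT19 and 0% in NES. With windows of 100 bases the shares were 33.7% in VIM, 16.6% in KRT18, 7.67% in KRT7 and 6.73% in KRT8, and the read length is not given in the sources used here. KRT8 and KRT18 lie head to head, and 8 of the 17 annotated KRT8 transcripts reach into KRT18 on the other strand, covering 24.0% of the main KRT18 transcript. The antisense gene VIM-AS1 covers 34.3% of the main VIM transcript. No source says that the counting used strand, so reads in these stretches cannot be told apart, and the VIM, KRT8 and KRT18 levels are uncertain to that extent. VIM-AS1 itself was at 0.518 and 0.509 FPKM with DMSO and 0.290 and 0.380 FPKM with IWP2.

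Other filament genes, from a list of 34, mostly fell below the tested level: 12 were listed at 0 throughout and 11 were tested. Of these 2 fell and 9 were not called, so 18.2% were called against 15.2% of all genes tested. The median log2 difference was -0.28 (all genes tested, -0.02). NEFL, the light neurofilament chain, had 13.6 and 8.09 FPKM with DMSO and 2.45 and 2.83 FPKM with IWP2 (log2 difference -1.67, limma adjusted p = 0.0130). LMNA, which encodes the nuclear lamins A and C, had 71.7 and 58.2 FPKM against 40.0 and 40.2 (log2 difference -0.67, limma adjusted p = 0.0224). The B-type lamins LMNB1 and LMNB2 were not called, with log2 differences of -0.30 and -0.06. KRT10 and KRT17, the other keratins tested, were not called either, with differences of -0.28 and 0.62.

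Of 18 genes for the desmosomes and plakins that tie keratins to cell junctions 14 were tested, 2 rose, 1 fell and 11 were not called, so 21.4% were called against 15.2% of all genes tested. The median log2 difference was 0.03, with members on both sides of 0. Desmoplakin (DSP), which links keratin to the desmosome, was at 24.0 and 19.8 FPKM with DMSO and 11.8 and 11.1 FPKM with IWP2 (log2 difference -0.88, limma adjusted p = 0.0120). Periplakin (PPL) was at 5.19 and 3.46 FPKM against 12.8 and 11.5 (log2 difference 1.32, limma adjusted p = 0.0116). PKP4, a plakophilin, rose by 0.47 on the log2 scale, and plakoglobin (JUP) and PNN were not called.

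Of 17 kinases, chaperones and turnover factors of filaments tested, 1 rose and 2 fell, so 17.6% were called against 15.2% of all genes tested. BAG3, a cochaperone of protein quality control in muscle, was at 36.9 and 41.0 FPKM with DMSO and 12.9 and 12.4 FPKM with IWP2 (log2 difference -1.55, limma adjusted p = 0.00128). ROCK2, a kinase that phosphorylates vimentin, fell by 0.47, and PAK1, another filament kinase, rose by 0.43 on the log2 scale. The 14-3-3 genes YWHAE and YWHAZ, whose products bind phosphorylated keratin 18, were not called, with log2 differences of 0.02 and -0.01.

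The transcription factors and splicing regulators of epithelial cells were higher with IWP2 for the most part. Of 13 tested genes from a list of 15, 7 rose, 1 fell and 5 were not called. Thus 61.5% were called, against 15.2% of all genes tested. The median log2 difference was 0.95, against -0.02 over all genes tested. GRHL2, a grainyhead-like factor of epithelial genes, was at 2.45 and 1.80 FPKM with DMSO and 11.4 and 10.8 FPKM with IWP2 (log2 difference 1.96, limma adjusted p = 0.00243). GRHL3, its relative, and ELF3, an epithelial ETS factor, rose by 1.36 and 1.25 on the log2 scale. TFAP2C (33.9 and 16.8 against 53.7 and 53.8 FPKM) and ESRP2 (13.2 and 8.05 against 20.4 and 20.0) were not called. KLF5 went the other way, from 8.498 and 7.847 FPKM with DMSO to 2.24 and 2.15 FPKM with IWP2 (log2 difference -1.52, limma adjusted p = 0.00301).

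Of 10 tested genes from the list of mesenchymal regulators 7 fell, 1 rose and 2 were not called. So 80% were called, against 15.2% of all genes tested, and the median log2 difference was -1.78. The list also holds CDH2, a cadherin, and FN1, which are not transcription factors. CDH2 was among the 7 that fell. SNAI1, an EMT repressor of epithelial genes, was at 34.8 and 43.5 FPKM with DMSO and 5.26 and 5.71 FPKM with IWP2. SNAI2 was at 14.4 and 19.0 FPKM against 0.792 and 1.02, and ZEB2 at 7.07 and 12.7 FPKM against 0.533 and 0.729. LEF1, a nuclear partner of β-catenin that the Wnt list also holds, was at 9.34 and 9.70 FPKM against 0.144 and 0.239. The IWP2 means of SNAI2, ZEB1, ZEB2, TWIST2 and LEF1 were under 1 FPKM, so these entered the test only through their DMSO levels. Over all 12 lists beside the members, 21 of 116 genes tested had a group mean under 1 FPKM, and 16 of the 21 were called. TWIST1 (2.94 and 4.84 against 2.55 and 2.30 FPKM) and TWIST2 were not called. The gene that rose was FN1, fibronectin, at 235 and 153 FPKM with DMSO and 794 and 769 FPKM with IWP2.

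**Figure D4:**
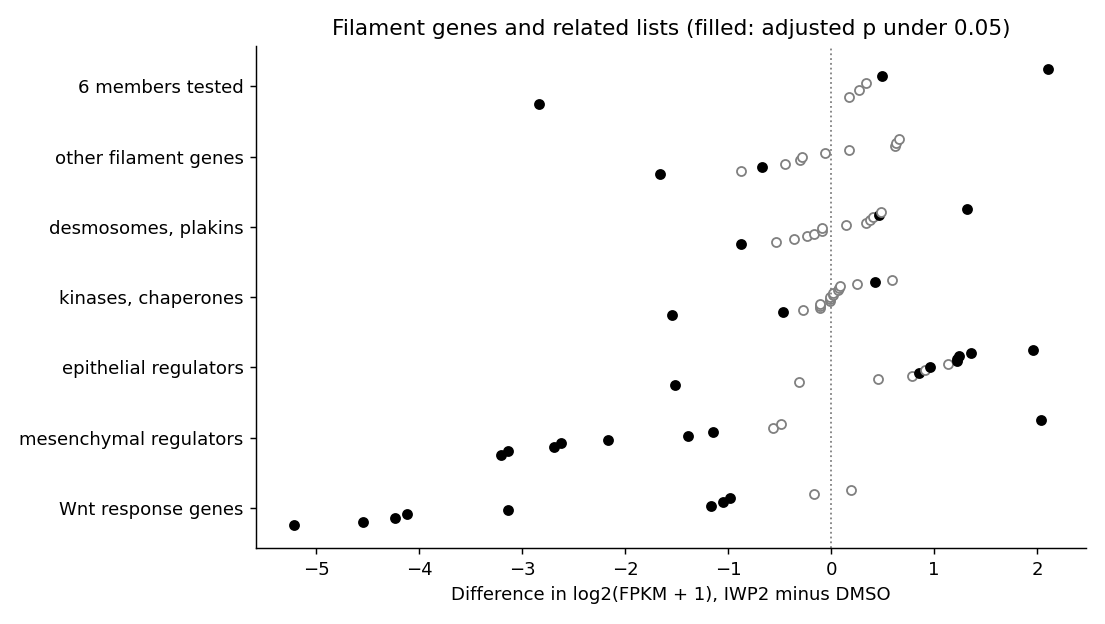
Difference in log2(FPKM + 1), IWP2 minus DMSO (horizontal axis), for each tested gene of 7 lists (rows); filled points were called at an adjusted p under 0.05, open points were not. Most epithelial regulators lie above 0 and most mesenchymal regulators and Wnt response genes below it, whereas junction genes and filament kinases spread on both sides of 0.

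Markers of some cell types also differed between the groups. Of 10 primitive streak and mesoderm markers tested all 10 fell, against 8.44% of all genes tested. The summed level of the list was 1194 and 1517 FPKM with DMSO and 154 and 176 FPKM with IWP2. APLNR, a surface marker of mesoderm, was at 380 and 512 FPKM against 2.97 and 2.39, and the nascent mesoderm factor MESP1 at 47.6 and 74.6 against 0.244 and 0.0870. Of the 10, 3 (MESP1 among them) had IWP2 means under 1 FPKM and so entered the test only through their DMSO levels. Of 9 pluripotency markers 6 rose, 1 fell (TDGF1) and 2 were not called (LIN28A and NANOG). Thus 77.8% were called, against 15.2% of all genes tested. Their summed level was 1455 and 1284 FPKM with DMSO and 2630 and 2630 FPKM with IWP2. Without POU5F1 the sums were 704 and 712 FPKM against 775 and 787. SOX2 was at 0.193 and 0.174 FPKM against 35.6 and 36.1, and POU5F1 at 751 and 571 FPKM against 1854 and 1844. SOX2 entered the test only through its IWP2 level. The part of these cell types in the filament gene changes was not tested.

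KRT7 is also a marker of amnion and trophoblast, tissues that BMP4 can induce. Of 8 such markers tested 3 rose, 2 fell and 3 were not called, so 62.5% were called against 15.2% of all genes tested. The summed level of the list was 320 and 415 FPKM with DMSO and 206 and 229 FPKM with IWP2. HAND1, which the mesoderm list also holds, carried this fall, since the other 11 genes summed to 86.3 and 92.7 FPKM with DMSO and to 105 and 110 FPKM with IWP2, the opposite direction. GABRP, an amnion marker, rose (0.467 and 0.455 against 2.13 and 2.40 FPKM) and entered the test only through its IWP2 level, as CDX2 did through its DMSO level. IGFBP3 rose (2.18 and 1.49 against 16.4 and 18.3 FPKM), as did TFAP2A (16.5 and 12.01 against 34.0 and 34.2), while CDX2 fell (5.50 and 5.21 against 0.233 and 0.145) and HAND1 fell (234 and 322 against 101 and 119). GATA3 (39.7 and 43.7 against 34.6 and 37.7 FPKM), GATA2 and ISL1 (6.51 and 7.10 against 6.06 and 6.63 FPKM) were not called. The trophoblast genes ELF5, CGA and VTCN1 were at 0 or below 0.2 FPKM in every library. The part of such cells in the rise of KRT7 was not tested.

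For NES, 4 of 9 neural markers could be tested, 1 rose (SOX3, 0.488 and 0.445 against 4.08 and 3.97 FPKM), 1 fell (OTX2, 55.8 and 61.2 against 2.19 and 2.95 FPKM) and 2 were not called (TUBB3 and FABP7). So 50% of the 4 were called, against 15.2% of all genes tested. SOX3 entered the test only through its IWP2 level. The summed level of the list was 216 and 167 FPKM with DMSO and 107 and 99.1 FPKM with IWP2. TUBB3, which was not called, and OTX2 made up most of it, and the other 7 genes summed to 8.41 and 6.16 FPKM with DMSO and to 11.96 and 13.3 FPKM with IWP2, the opposite direction. The neural progenitor genes SOX1 and NEUROG2 were at or near 0 in every library, and PAX6 was at 1.33 and 0.646 FPKM with DMSO and 0.0838 and 0.0278 FPKM with IWP2. For DES, the skeletal muscle regulators MYOD1, MYOG and MYF5 were below 0.3 FPKM in every library. Of 8 muscle genes tested 4 rose and 2 fell, among them the actins ACTC1 (101 and 84.0 against 182 and 188 FPKM) and ACTA1, which rose, and the cardiac genes NKX2-5 (11.1 and 9.05 against 0.616 and 1.502 FPKM) and MYL7, which fell. ACTA2 and TNNT2 were not called, so 75% of the 8 were called against 15.2% of all genes tested. The list summed to 785 and 638 FPKM with DMSO and 1120 and 1202 FPKM with IWP2. Without TAGLN and ACTC1, its most abundant genes, the sums were 168 and 125 FPKM against 119 and 140, and the groups overlapped. The part of neural or muscle cells in the NES and DES values was not tested.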

How the data were processed

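RNA-seq of 4 libraries (2 DMSO, 2 IWP2) was used as deposited: FPKM per gene, made by the authors from TruSeq libraries. The file header names no unit, and the values are not whole numbers and sum differently in each library, so FPKM is how the table was read. The submitters' processing notes name BWA, Bowtie and RSEM and the build hg19, without roles or versions, whereas the row coordinates are those of GENCODE 29 on GRCh38, the build used here. The labels and the study's methods give the activin A and BMP4 doses the other way round. Columns are marked minus or plus IWP2 with a number, and the minus columns were taken as the DMSO group. Depth is unknown, and a value of 0 may be a failed estimate.

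Genes with a mean of at least 1 FPKM were compared as log2(FPKM + 1) with limma 3.58.1 (R 4.3.3), using a mean-variance trend, 2-sided tests and Benjamini-Hochberg adjustment over all genes tested. The script was tested on simulated data. The members and lists were chosen with earlier results of these data known. All members were named, and genes of each list were taken from up to 4 called genes with the largest difference and up to 2 not called with the highest level, not all of which are printed. KRT5, KRT10, KRT14, KRT17, ZEB1, CDH2, FN1, GABRP, ISL1, TAGLN, VIM-AS1, the list sums without their most abundant genes and the markers at or near 0 were added after their values were seen. For KRT8, KRT18 and VIM the 3 genes nearest in pattern were named. The main transcript of a gene is its most compact APPRIS principal transcript. Alternatives changed the pseudocount, the filter, the scaling, the trend, the replicate block and the libraries used.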

Additional observations from a re-analysis of the deposited data

How the results depend on the processing

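The fall of VIM was called under all 12 alternatives, and KRT8, KRT18 and KRT19 were called under none of them. With no filter on low values 28917 genes entered and the number of genes called fell from 2129 to 381, list genes called from 63 to 28, and members called higher from 2 to 0, although 5 of 7 members had an unadjusted p under 0.05. Members called higher numbered 1 with a filter of 5 FPKM, which removes KRT7, and 1 without the trend, where NES was lost. Leaving out 1 library at a time, with the lone sample of that group assumed to vary like the other group, gave 238 to 1375 genes called (lowest without IWP2 replicate 2), 22 to 63 list genes and 0 to 1 members called higher. The log2 of the mean keratin to VIM ratio with IWP2 over that with DMSO was 3.05. Without single libraries the difference in mean log2 ratio, a slightly different measure, ranged from 2.74 to 3.43. It was highest without DMSO replicate 1. Rescaling moved the median gene by less than 0.1 on the log2 scale and changed no member's call. That included a rescaling without RN7SL1, RN7SL2 and mitochondrial genes, which was chosen after seeing the data.

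The titles number replicates 1 and 2 in both groups but do not say that a number marks a shared culture or day. Deviations of same-numbered libraries correlated at 0.15 over genes. Mitochondrial genes took 9.57% and 8.95% of FPKM in replicate 1 of DMSO and IWP2, but 6.25% and 6.92% in replicate 2. Whether a number marks a shared batch was not tested. With the replicate block 1927 genes were called, and no member's call changed.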

Other observations

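Of 5 endoderm markers tested from a list of 7, 4 fell with IWP2 and SOX17 was not called (155 and 104 FPKM with DMSO, 79.7 and 94.9 FPKM with IWP2). Thus 80% were called, against 15.2% of all genes tested. GATA6, a mesendoderm factor, was at 119 and 134 FPKM with DMSO and 3.52 and 3.01 FPKM with IWP2. FOXA2 was at 6.28 and 3.49 FPKM against 0.222 and 0.297, CXCR4 at 24.1 and 14.5 against 3.92 and 4.40, and HHEX at 2.08 and 2.30 against 0.269 and 0.376. FOXA2 and HHEX entered the test only through their DMSO levels. KRT8, KRT18 and KRT19, which endodermal epithelia also express, were not called.

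The genes whose centred log2(FPKM + 1) values over the 4 libraries lay closest to those of VIM, among 7114 others with a mean of at least 10 FPKM, were SNAI1 (distance 0.243), SP6 (0.291) and ENC1 (0.295). SNAI1 encodes an EMT repressor, SP6 a zinc finger factor and ENC1 an actin-associated protein. SP6 was at 21.1 and 23.7 FPKM with DMSO and 1.86 and 1.93 FPKM with IWP2, and ENC1 at 93.1 and 104 FPKM against 14.6 and 14.5. The 4 libraries hold 1 contrast, so likeness here cannot be told apart from a like difference between groups. For KRT8 the closest were GSS, RPL38 and FAM20B, and its partner KRT18 ranked 244. For KRT18 the closest were ITM2B, MRS2 and CHRNA5, and KRT8 ranked 100 and KRT19 ranked 180.

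Within 200 kb of VIM, 2 other genes were tested and neither was called, TRDMT1 (3.15 and 4.97 FPKM with DMSO, 3.24 and 3.21 FPKM with IWP2) and ST8SIA6 (1.83 and 1.11 against 2.04 and 2.18). Near KRT7, NR4A1 was called lower (12.7 and 13.4 FPKM against 3.998 and 5.45) and ATG101 was not called. Around KRT8 and KRT18, which were not called, TNS2 (8.19 and 10.4 FPKM against 1.29 and 1.14) and IGFBP6 (13.0 and 6.98 against 2.00 and 1.85) were called lower, and EIF4B, SPRYD3 and AC068888.1 were not called. These neighbours were named after their values were seen.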
